A study of Mus musculus with 10 samples.

Results

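Messenger RNA levels of 10 immediate early genes, of 17603 genes with a value, were compared across 10 RNA-sequencing libraries of sorted mouse cells. The set holds Fos, Fosb, Jun and Junb, which encode subunits of the transcription factor AP-1, the transcription factors Egr1, Nr4a1 and Klf2, and Ier2, Ier3 and Btg2. The members were chosen by name, as AP-1 subunits, Egr1 and other immediate early genes, and all 10 had a value in every library. Wild-type female C3H/HeN mice carried tumors grown from SCC7, a mouse squamous cell carcinoma line used to model head and neck cancer. From these mice, cells that the labels call EPC, an abbreviation they do not spell out, were sorted by flow cytometry. The groups were tumor CD45+ cells (4 libraries), splenic CD45+ cells (3 libraries) and splenic CD45- cells (3 libraries), and CD45 is the surface phosphatase of white blood cells. All groups came from tumor-bearing mice, so no group stands for a healthy spleen. The labels give neither an age, nor the further surface markers of the sort, nor whether replicates are separate mice, so p-values speak to the spread among these libraries alone, and that spread may be technical.

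Immediate early genes are transcribed within minutes of a signal and need no new protein to be switched on. Growth factors, cytokines and stress act through the ERK, JNK and p38 kinases on factors already bound near the genes, among them SRF with its ETS partners, and CREB. Fos and Jun proteins pair to form AP-1, Egr1 and Klf2 are zinc-finger factors, and Nr4a1 is an orphan nuclear receptor. In macrophages, AP-1 and Egr1 are known to act in activation and differentiation. The same genes are also known to respond to tissue dissociation and cell handling, so their messenger RNA in sorted cells can reflect the time before and during the sort.

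The stretches just before the transcription start are among the places where such signals are read. Shown are those of 5 members: the AP-1 genes Fos, Fosb and Junb, Nr4a1, whose promoter held the most TGACG matches, and Btg2, the member that moved the other way. Each is the 250 bases before the transcript start that the RefSeq table of build GRCm38.p6 gives for the gene, 5′ to 3′ on the strand of the gene, and capitals mark TGACG or its reverse complement CGTCA, the core of the cAMP response element bound by CREB and ATF factors. The stretches lie at chr12:85473640-85473889 on the plus strand (Fos), chr7:19310046-19310295 on the minus strand (Fosb), chr8:84978749-84978998 on the minus strand (Junb), chr15:101266596-101266845 on the plus strand (Nr4a1) and chr1:134079156-134079405 on the minus strand (Btg2).
Fos: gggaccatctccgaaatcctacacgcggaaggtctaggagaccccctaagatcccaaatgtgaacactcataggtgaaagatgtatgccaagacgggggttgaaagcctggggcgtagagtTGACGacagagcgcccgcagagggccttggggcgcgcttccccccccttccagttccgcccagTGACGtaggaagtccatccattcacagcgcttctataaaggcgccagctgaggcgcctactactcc
Fosb: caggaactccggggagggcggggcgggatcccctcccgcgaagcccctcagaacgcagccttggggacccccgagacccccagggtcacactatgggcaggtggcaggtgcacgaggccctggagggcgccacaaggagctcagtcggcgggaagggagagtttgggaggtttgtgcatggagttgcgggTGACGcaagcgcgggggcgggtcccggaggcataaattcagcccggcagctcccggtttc
Junb: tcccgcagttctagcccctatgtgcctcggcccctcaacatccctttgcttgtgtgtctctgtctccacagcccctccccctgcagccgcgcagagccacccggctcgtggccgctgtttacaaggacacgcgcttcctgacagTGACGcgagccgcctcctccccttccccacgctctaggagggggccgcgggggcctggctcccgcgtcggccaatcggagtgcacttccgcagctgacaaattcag
Nr4a1: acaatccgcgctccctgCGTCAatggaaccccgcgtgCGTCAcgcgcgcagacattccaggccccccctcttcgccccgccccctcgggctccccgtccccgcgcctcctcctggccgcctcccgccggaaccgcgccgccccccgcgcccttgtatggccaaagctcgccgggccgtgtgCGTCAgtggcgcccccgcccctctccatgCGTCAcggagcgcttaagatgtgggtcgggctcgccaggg
Btg2: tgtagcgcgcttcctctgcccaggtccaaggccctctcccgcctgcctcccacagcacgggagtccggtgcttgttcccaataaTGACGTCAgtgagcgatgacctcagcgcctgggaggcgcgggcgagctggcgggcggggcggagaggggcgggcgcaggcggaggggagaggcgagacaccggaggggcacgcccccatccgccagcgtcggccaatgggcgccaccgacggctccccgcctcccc
For Nr4a1 and Fosb that start lies inside the gene's annotated span, not at its end. The table held a promoter for 8 of the 10 members, all but Egr1 and Ier2. Searched on both strands, TGACG was found in 6 of the 8 (Fos, Fosb, Junb, Nr4a1, Klf2 and Btg2), against 17.8% of all 32851 promoters in the table. The full palindrome TGACGTCA, which contains TGACG on both strands, stood in Btg2 alone, 159 to 166 bases before its start, against 1.55% of all promoters. The Egr-type letters GCGNGGGCG were found in 4 of the 8 (Fosb, Nr4a1, Klf2 and Btg2), against 4.70% of all promoters. TATAAA was found in Fos alone, 28 to 33 bases before its start, against 12.4% of all promoters. Neither the AP-1 letters TGANTCA nor the CArG box read by SRF was found in these windows of the 8 members, against 6.75% and 1.47% of all promoters. With shares this low, absence from 8 windows does not show a lack, and bases further upstream were not searched. The motifs were chosen with the members' behaviour known, and a match describes the letters and shows no binding.

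Expression was deposited per RefSeq transcript model in values read here as FPKM (fragments scaled by transcript length and by the library's mapped fragments), and the models of a gene were summed. The smallest steps between low values gave depths of roughly 17000000 to 21200000 fragments. Ptprc, the gene of CD45, had 59.4 to 92.5 FPKM in tumor CD45+, 39.2 to 265 FPKM in splenic CD45+ and 1.63 to 2.57 FPKM in splenic CD45- libraries, in the order of the gates. Globin transcripts took 1.80% to 10.4% of the summed FPKM in tumor CD45+, 29.4% to 52.2% in splenic CD45+ and 62.5% to 63.5% in splenic CD45- libraries. Within the tumor group, replicates 2, 3 and 4 were much closer to each other than to replicate 1. Over genes with 1000 to 10000 implied fragments, the typical squared difference was 1.91 times the counting variance between tumor replicates 2 and 3, 7.12 and 7.06 times between replicate 4 and these, and 45.7 to 56.2 times between replicate 1 and the rest. The same ratio was 58.6 to 316 between splenic CD45+ libraries and 18.4 to 46 between splenic CD45- libraries. Over genes with 100 to 1000 implied fragments, the ratio was 1.19 between tumor replicates 2 and 3, and 2.25 and 2.04 between replicate 4 and these. Tumor replicates 2 and 3 thus differed by little more than counting error at this level and by somewhat more among the higher genes. They were kept as separate samples, and results with them averaged are given below.

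A pair of libraries stood apart within its group. Splenic CD45+ replicate 2 held a median of 0.101 times the members' FPKM of replicate 1 and 0.126 times that of replicate 3. By median ratio it was also low in markers of B cells (0.114 and 0.138 times), of T and NK cells (0.133 and 0.176 times) and of monocytes and macrophages (0.0496 and 0.205 times). Erythroid markers were at 0.831 and 0.866 times, and granulocyte markers at 1.24 times replicate 1 and 0.381 times replicate 3. Tumor CD45+ replicate 1 held a median of 0.609 times the members' FPKM of the median of tumor replicates 2 to 4. It was high in erythroid markers (6.51 times) and granulocyte markers (22.7 times) and low in T and NK cell markers (0.171 times). The part of these cell types in the members' levels was not tested, and in bulk libraries fewer cells of a type and less RNA per cell cannot be told apart.

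**Figure D1:**
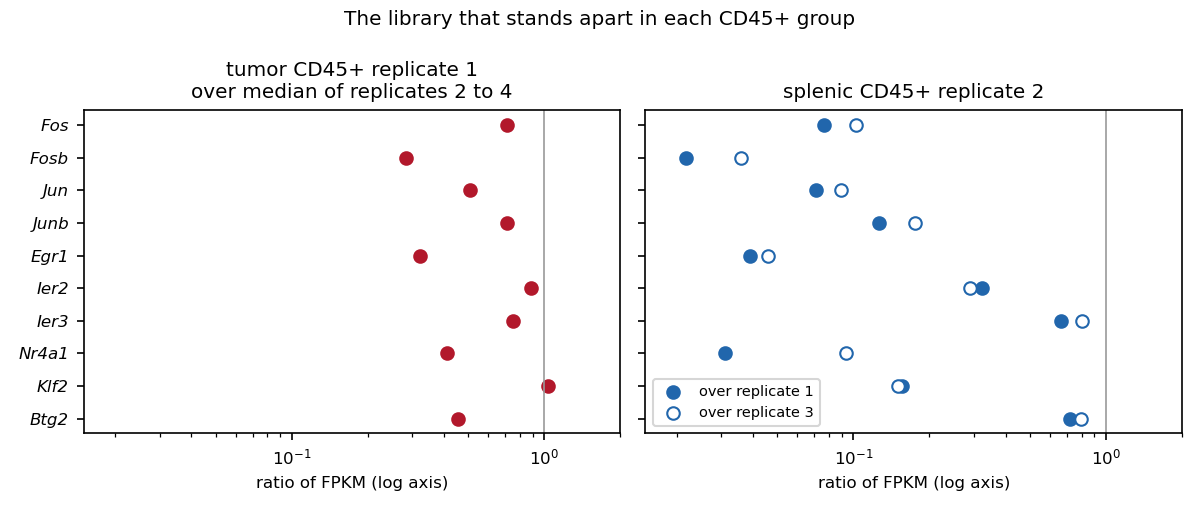
Each point is the FPKM ratio (log axis) of a library that stood apart to other libraries of its group, for tumor CD45+ replicate 1 over the median of replicates 2 to 4 (left) and for splenic CD45+ replicate 2 over replicate 1 (filled) and replicate 3 (open, right). In the spleen the ratios ran from 0.0217 for Fosb to 0.806 for Ier3, and in the tumor from 0.284 for Fosb to 1.04 for Klf2.

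Tumor CD45+ libraries held more of 9 members and less of Btg2 than splenic CD45+ libraries. Differences were tested with limma on log2(FPKM + 1) across every gene that reached 1 FPKM in 3 or more libraries of the comparison, and a gene was called at an adjusted p (Benjamini-Hochberg) below 0.05. All 10 members were tested, 9 were called higher and 1 lower, in a comparison in which 37.7% of the 11463 genes tested were called higher and 26.0% lower (63.8% in all). Fosb, at 33.6, 0.73 and 20.4 FPKM in splenic CD45+ libraries, met the filter only through the tumor. The members' median log2 difference was 2.77, against 0.20 over all genes tested. For 9 members the tumor and splenic CD45+ values did not overlap, and the exception was Nr4a1. The share of all genes without overlap was not computed, so this count describes the members and does not set them apart.

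Splenic CD45+ libraries held more of 8 members than splenic CD45- libraries. Of the 9 members tested, 8 were called higher and none lower, in a comparison in which 50.5% of the 9728 genes tested were called higher and 5.02% lower (55.5% in all). A single member, Btg2, was tested and not called, and it is described in its own paragraph. Fosb was not tested, since it reached 1 FPKM in fewer than 3 of the 6 libraries. Egr1 and Nr4a1 were below 1 FPKM in every splenic CD45- library and passed the filter only through splenic CD45+, so they could be called in a single direction. Jun, at 1.37, 0.86 and 1.77 FPKM in splenic CD45- libraries, also met the filter only through splenic CD45+. The median log2 difference was 3.22 over the 9 members tested, against 0.67 over all genes tested. This comparison and the one before it share the splenic CD45+ libraries, so a low splenic CD45+ value enlarges one difference and shrinks the other.

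Tumor CD45+ and splenic CD45- libraries differ in tissue and in gate, which cannot be told apart. All 10 members were tested there, 9 were called higher and 1, Btg2, lower, beside 67.5% of the 11208 genes tested called higher and 22.5% lower (90.0% in all). The median log2 difference was 6.23, against 1.06 over all genes tested. No member's values overlapped between these groups, and here too the share of all genes without overlap was not computed. Fosb, Egr1 and Nr4a1 were below 1 FPKM in every splenic CD45- library. They passed the filter only through the tumor, so they could be called in a single direction. Jun, at 1.37, 0.86 and 1.77 FPKM in splenic CD45- libraries, also met the filter only through the tumor.

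**Figure D2:**
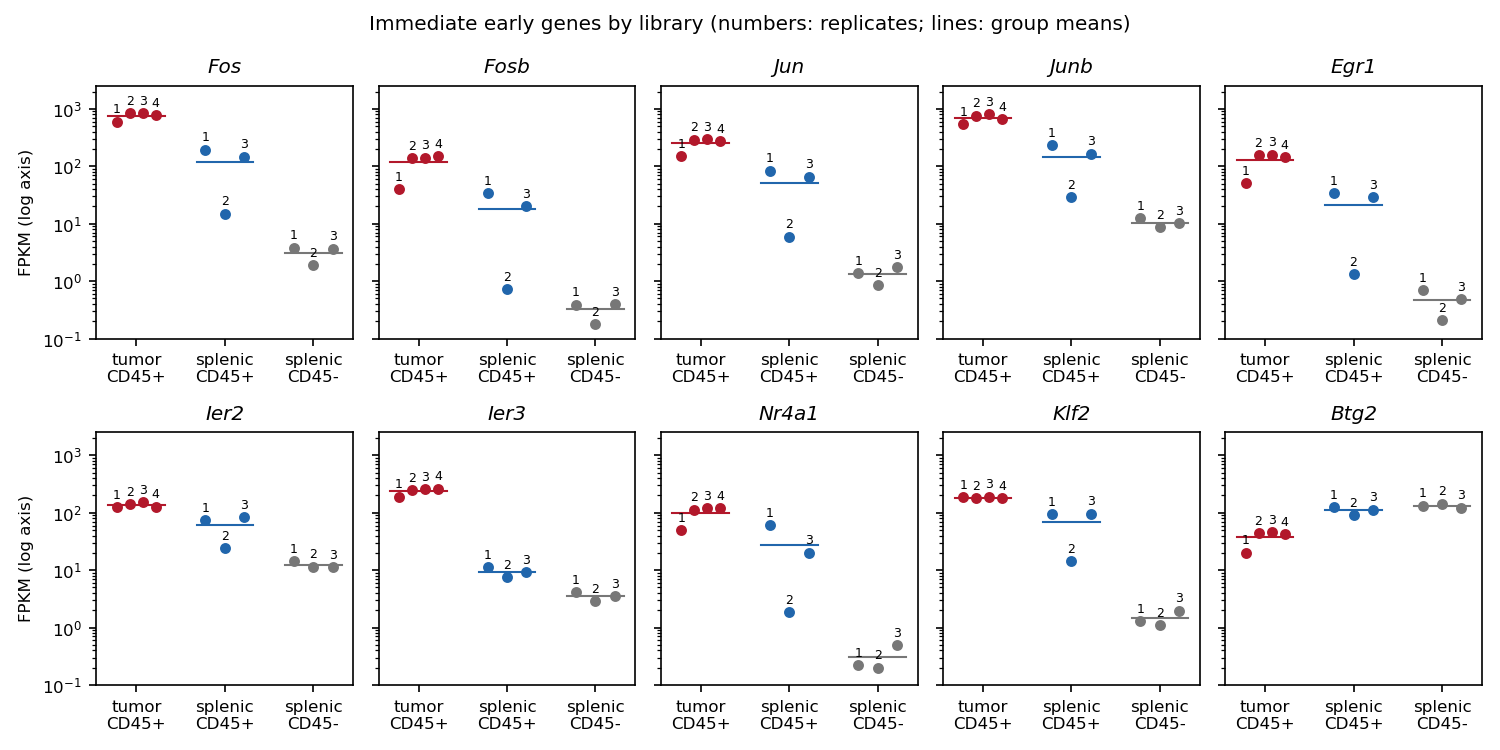
FPKM of each member (log axis) in tumor CD45+, splenic CD45+ and splenic CD45- libraries, with replicate numbers beside the points and a line at each group's mean. Fos lay between 598 and 841 FPKM in tumor CD45+ libraries, and Btg2 alone was lowest there, between 20.3 and 45.7 FPKM.

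Fos, the founding subunit of the Fos family, had 598, 838, 841 and 785 FPKM in tumor CD45+ libraries 1 to 4, against 195, 14.95 and 146 FPKM in splenic CD45+ libraries 1 to 3 and 3.84, 1.90 and 3.66 FPKM in splenic CD45- libraries 1 to 3. The 3 groups did not overlap, and splenic CD45+ replicate 2 lay nearest to the splenic CD45- libraries. The log2 difference was 3.30 (SE 0.79, adjusted p = 0.00710) for tumor CD45+ over splenic CD45+, 4.26 (SE 0.87, adjusted p = 0.00537) for splenic CD45+ over splenic CD45- and 7.56 (SE 0.20, adjusted p = 1.04e-09) for tumor CD45+ over splenic CD45-. Fos lies on chromosome 12 at 85473890 to 85477274 (Entrez gene 14281). Fosb, a second Fos-family subunit, had 40.2, 139, 142 and 152 FPKM in tumor CD45+ libraries, 33.6, 0.73 and 20.4 FPKM in splenic CD45+ libraries and 0.39, 0.18 and 0.40 FPKM in splenic CD45- libraries. The lowest tumor library, replicate 1, was close to the highest splenic one, and splenic CD45+ replicate 2 was near the splenic CD45- level. The log2 difference was 3.29 (SE 1.01, adjusted p = 0.0212) for tumor CD45+ over splenic CD45+ and 6.33 (SE 0.42, adjusted p = 5.45e-07) for tumor CD45+ over splenic CD45-. The first of these calls was lost without tumor replicate 4 (3.11, adjusted p = 0.0526). Fosb lies on chromosome 7 at 19302696 to 19310118 (Entrez gene 14282).

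The Jun-family members followed the same order of groups. Jun, which can pair with Fos proteins or with itself, had 148, 292, 294 and 271 FPKM in tumor CD45+ libraries, 83.5, 5.94 and 66.3 FPKM in splenic CD45+ libraries and 1.37, 0.86 and 1.77 FPKM in splenic CD45- libraries. No groups overlapped. Its log2 difference was 2.84 (SE 0.81, adjusted p = 0.0161) for tumor CD45+ over splenic CD45+, 3.89 (SE 0.87, adjusted p = 0.00765) for splenic CD45+ over splenic CD45- and 6.72 (SE 0.25, adjusted p = 9.43e-09) for tumor CD45+ over splenic CD45-. Junb, a Jun relative known to temper Jun's activity in several settings, had 538, 758, 810 and 664 FPKM in tumor CD45+ libraries, 233, 29.3 and 167 FPKM in splenic CD45+ libraries and 12.6, 8.70 and 10.1 FPKM in splenic CD45- libraries. Among Fos, Fosb, Jun and Junb it was the most abundant in every splenic library and second to Fos in every tumor library. Its log2 difference was 2.69 (SE 0.64, adjusted p = 0.00685) for tumor CD45+ over splenic CD45+, 3.22 (SE 0.70, adjusted p = 0.00672) for splenic CD45+ over splenic CD45- and 5.92 (SE 0.16, adjusted p = 1.47e-09) for tumor CD45+ over splenic CD45-. Jun lies on chromosome 4 at 95049036 to 95052222 (Entrez gene 16476) and Junb on chromosome 8 at 84976909 to 84978748 (Entrez gene 16477).

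Egr1, a zinc-finger factor that follows ERK signalling, had 50.6, 157, 159 and 143 FPKM in tumor CD45+ libraries, 34.1, 1.33 and 29.0 FPKM in splenic CD45+ libraries and 0.70, 0.21 and 0.49 FPKM in splenic CD45- libraries. An implied 11.9 to 37.8 fragments lay behind the splenic CD45- values, so these are coarse. The log2 difference was 3.12 (SE 0.94, adjusted p = 0.0198) for tumor CD45+ over splenic CD45+ and 3.21 (SE 0.95, adjusted p = 0.0230) for splenic CD45+ over splenic CD45-. The second call was lost without any 1 splenic CD45- library (adjusted p from 0.0546 to 0.0669) and without splenic CD45+ replicate 1 (0.0706) or 3 (0.0880). Tumor CD45+ over splenic CD45- gave 6.33 (SE 0.38, adjusted p = 2.43e-07). Nr4a1, an orphan nuclear receptor known in lymphocytes as a reporter of antigen-receptor signalling and in the spleen for patrolling monocytes, had 49.4, 113, 121 and 120 FPKM in tumor CD45+ libraries, 60.7, 1.88 and 20.1 FPKM in splenic CD45+ libraries and 0.22, 0.20 and 0.49 FPKM in splenic CD45- libraries. Splenic CD45+ replicate 1 exceeded tumor replicate 1, so the 2 CD45+ groups overlapped for this gene. Its log2 difference was 2.63 (SE 0.93, adjusted p = 0.0371) for tumor CD45+ over splenic CD45+, a call lost without any 1 tumor library (adjusted p from 0.0518 to 0.0804) and without splenic CD45+ replicate 3 (0.0716). Splenic CD45+ over splenic CD45- gave 3.58 (SE 0.97, adjusted p = 0.0161), a call lost without splenic CD45- replicate 1 (0.0591) or splenic CD45+ replicate 3 (0.0623), and tumor CD45+ over splenic CD45- gave 6.21 (SE 0.30, adjusted p = 5.29e-08). Egr1 lies on chromosome 18 at 34861207 to 34864956 (Entrez gene 13653) and Nr4a1 on chromosome 15 at 101253902 to 101274795 (Entrez gene 15370).

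Klf2, a zinc-finger factor known for quiescence in lymphocytes and for restraint of inflammatory genes in myeloid cells and endothelium, had 186, 179, 190 and 179 FPKM in tumor CD45+ libraries, 93.8, 14.5 and 96.7 FPKM in splenic CD45+ libraries and 1.29, 1.09 and 1.96 FPKM in splenic CD45- libraries. Tumor replicate 1 was at 1.04 times the median of tumor replicates 2 to 4 for Klf2, and below that median for the other 9 members. The log2 difference was 1.82 (SE 0.60, adjusted p = 0.0291) for tumor CD45+ over splenic CD45+, a call lost without any 1 tumor library (adjusted p from 0.0572 to 0.0709). Splenic CD45+ over splenic CD45- gave 4.44 (SE 0.68, adjusted p = 0.00205), and tumor CD45+ over splenic CD45- gave 6.25 (SE 0.12, adjusted p = 1.75e-10). Klf2 lies on chromosome 8 at 72319062 to 72321654 (Entrez gene 16598).

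The Ier genes are named for their immediate early response. Ier2, a nuclear protein, had 125, 141, 153 and 128 FPKM in tumor CD45+ libraries, 74.3, 24.1 and 83.2 FPKM in splenic CD45+ libraries and 14.4, 11.5 and 11.4 FPKM in splenic CD45- libraries. It gave the smallest log2 difference among the members called higher in the tumor, 1.34 (SE 0.40, adjusted p = 0.0186) over splenic CD45+ and 3.36 (SE 0.11, adjusted p = 4.32e-09) over splenic CD45-. Splenic CD45+ over splenic CD45- gave 2.02 (SE 0.45, adjusted p = 0.00728), a call lost with trimmed-mean (0.96, adjusted p = 0.0983) and median-ratio scaling (1.02, adjusted p = 0.0948). Ier3, a regulator of cell survival that NF-κB and ERK signalling are known to induce, had 191, 246, 255 and 263 FPKM in tumor CD45+ libraries, 11.3, 7.54 and 9.35 FPKM in splenic CD45+ libraries and 4.11, 2.88 and 3.54 FPKM in splenic CD45- libraries. The tumor libraries stood far above both splenic groups, and splenic CD45+ replicate 2 was at 0.665 and 0.806 times replicates 1 and 3. The log2 difference was 4.53 (SE 0.19, adjusted p = 9.30e-07) for tumor CD45+ over splenic CD45+, 1.20 (SE 0.23, adjusted p = 0.00392) for splenic CD45+ over splenic CD45- and 5.73 (SE 0.14, adjusted p = 6.13e-10) for tumor CD45+ over splenic CD45-. The call within the spleen was lost with trimmed-mean (0.26, adjusted p = 0.328) and median-ratio scaling (0.31, adjusted p = 0.252). Ier2 lies on chromosome 8 at 84661331 to 84662852 (Entrez gene 15936) and Ier3 on chromosome 17 at 35821713 to 35822911 (Entrez gene 15937). The Ier3 value sums 3 deposited models, 2 of them numbered copies, and the sources used here do not say how reads were split between copies.

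Btg2, an antiproliferative protein that promotes shortening of messenger RNA tails and is a p53 target, ran the other way. It had 20.3, 44.4, 45.7 and 42.5 FPKM in tumor CD45+ libraries, against 126, 90.5 and 114 FPKM in splenic CD45+ libraries and 134, 144 and 122 FPKM in splenic CD45- libraries. All tumor libraries lay below all splenic ones, while the splenic groups overlapped. The log2 difference was -1.56 (SE 0.30, adjusted p = 0.00257) for tumor CD45+ over splenic CD45+ and -1.84 (SE 0.26, adjusted p = 1.18e-04) for tumor CD45+ over splenic CD45-. Splenic CD45+ over splenic CD45- gave -0.29 (95% interval -0.74 to 0.17, adjusted p = 0.247), and the sign of this difference turned with the scaling. It was 0.094 with libraries scaled to a common sum (adjusted p = 0.786), and -1.40 with trimmed-mean scaling and -1.34 with median-ratio scaling, both called. Btg2 lies on chromosome 1 at 134074865 to 134079155 (Entrez gene 12227).

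**Figure D3:**
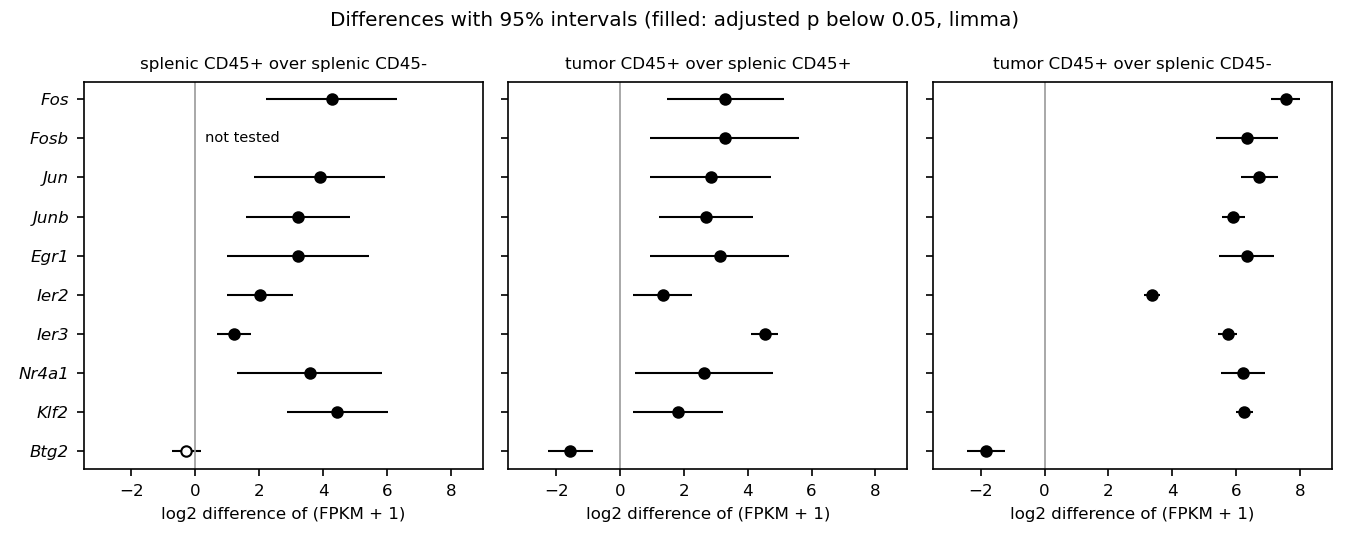
Log2 difference of (FPKM + 1) with its 95% interval for each member in the 3 comparisons, filled where the adjusted p was below 0.05. Ier3 stood at 4.53 for tumor CD45+ over splenic CD45+, Klf2 at 4.44 for splenic CD45+ over splenic CD45- and Fos at 7.56 for tumor CD45+ over splenic CD45-, and Btg2 lay below 0 in each, with an interval across 0 and a sign that turned at a common sum (0.094) for splenic CD45+ over splenic CD45-.

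FPKM is scaled by length, so the members can also be ordered by level within a group. In tumor CD45+ libraries Fos (mean 765 FPKM) and Junb (693 FPKM) led with overlapping ranges, followed by Jun (251 FPKM) and Ier3 (238.5 FPKM), whose ranges overlapped too. Klf2 (184 FPKM) lay above Ier2 (137 FPKM) in every tumor library, Egr1 (127 FPKM), Fosb (118 FPKM) and Nr4a1 (101 FPKM) overlapped with Ier2 or with each other, and Btg2 (38.2 FPKM) was the lowest member in each tumor library. In splenic CD45+ libraries Junb (143 FPKM), Fos (119 FPKM) and Btg2 (110 FPKM) had overlapping ranges, and replicate 2 spread most members widely, though not Btg2 or Ier3, the lowest by mean (9.41 FPKM). In splenic CD45- libraries Btg2 (133.5 FPKM) was far above Ier2 (12.4 FPKM) and Junb (10.5 FPKM), which overlapped, and Egr1 (0.467 FPKM), Fosb (0.323 FPKM) and Nr4a1 (0.303 FPKM) could not be ordered at that level.

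The results that rest on the libraries standing apart were repeated without them. Without splenic CD45+ replicate 2, tumor CD45+ over splenic CD45+ gave smaller log2 differences for the AP-1 members, 2.16 for Fos, 1.96 for Fosb, 1.69 for Jun and 1.79 for Junb. For the others it gave 1.85 for Egr1, 1.41 for Nr4a1, 0.94 for Klf2, 0.79 for Ier2, 4.40 for Ier3 and -1.69 for Btg2, and all 10 stayed called. Splenic CD45+ over splenic CD45- was larger without that library, 5.40 for Fos, 5.03 for Jun, 4.12 for Junb, 4.48 for Egr1, 4.80 for Nr4a1 and 5.31 for Klf2. With tumor replicate 1 left out as well, tumor CD45+ over splenic CD45+ gave 2.27 for Fos, 2.41 for Fosb, 1.93 for Jun, 1.91 for Junb, 2.25 for Egr1, 1.72 for Nr4a1, 0.93 for Klf2, 0.83 for Ier2, 4.50 for Ier3 and -1.42 for Btg2, again with all 10 called. The closeness of tumor replicates 2 to 4 bears on the same comparison. With replicates 2 and 3 averaged as 1 sample, 7 of 10 members were called, and Fosb (adjusted p = 0.05002), Klf2 (0.0587) and Nr4a1 (0.0776) were lost. With replicates 2 to 4 averaged as 1 sample, 2 of 10 were called, Ier3 higher and Btg2 lower, while the other members had log2 differences from 1.30 for Ier2 to 3.18 for Fos with adjusted p from 0.0556 to 0.177. All 10 members remained called for tumor CD45+ over splenic CD45- under both averages, which were added after the data were seen.

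The deposited tables held 3 transcript models of Fosb, and their balance differed between the CD45+ groups. The model NM_001347586 had 9.12, 61.9, 56.9 and 68.3 FPKM in tumor CD45+ libraries, 1.22, 0 and 1.22 FPKM in splenic CD45+ libraries and 0.10, 0 and 0 FPKM in splenic CD45- libraries. It took 22.7%, 44.5%, 40.2% and 45.1% of the gene's FPKM in tumor CD45+ libraries, against 3.63%, 0% and 5.97% in splenic CD45+ libraries, with no overlap between these groups. In splenic CD45- libraries it took 25.6%, 0% and 0% of a gene total of at most 0.40 FPKM, so 1 of these libraries lay above tumor replicate 1 in share. The model NM_008036 had 30.7, 74.2, 82.4 and 80.2 FPKM in tumor CD45+ libraries and 32.3, 0.73 and 19.2 FPKM in splenic CD45+ libraries, so tumor replicate 1 and splenic CD45+ replicate 1 were alike in it. Models of 1 gene share sequence, so their split is an estimate made upstream, and no test was run on it.

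**Figure D4:**
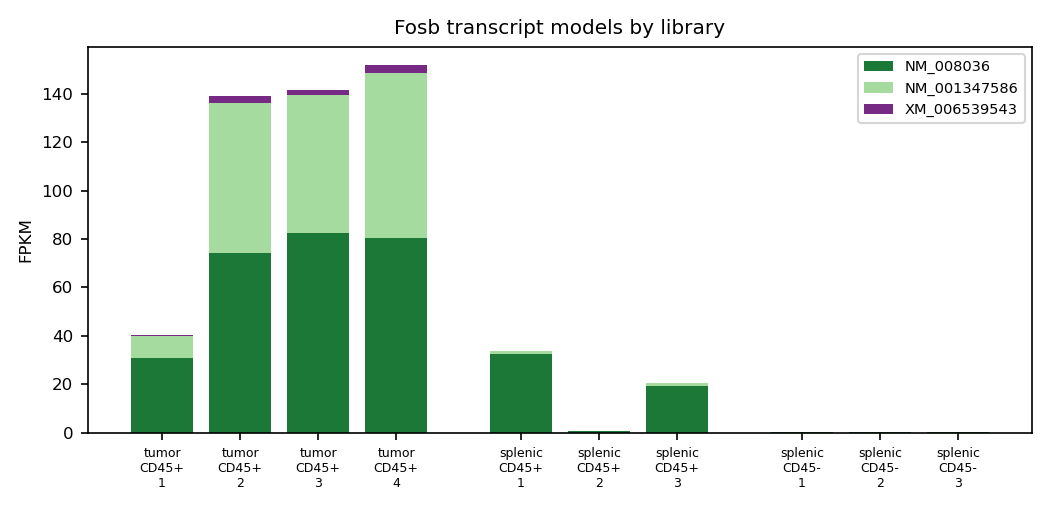
FPKM of the 3 deposited Fosb models, stacked by library, with tumor CD45+ libraries left of splenic CD45+ and splenic CD45- libraries. NM_001347586 made up 22.7% to 45.1% of the Fosb total in tumor CD45+ libraries and at most 5.97% in splenic CD45+ libraries.

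Across the 10 libraries the members other than Btg2 varied together. Pearson's r of log2(FPKM + 1) was 0.84 to 1.00 over the 36 pairs without Btg2 (median 0.99), with Ier3 at the lower end (0.84 to 0.91 with 8 others), and -0.91 to -0.70 between Btg2 and the 9 others. These are descriptions over libraries that fall into 3 groups. The genes most like the mean of the members' standardized profiles, of 11531 searched, were Id3 (r = 0.999), Trib1 (0.998), Tap2 (0.997), Pear1 (0.997) and Cd72 (0.997). Id3, an inhibitor of helix-loop-helix factors, had 20.7, 37.0, 33.0 and 32.9 FPKM in tumor CD45+ libraries, 14.1, 1.78 and 13.4 FPKM in splenic CD45+ libraries and 0.57, 0.35 and 0.56 FPKM in splenic CD45- libraries, so it shared the low splenic replicate 2. Member by member, the most correlated gene was Junb for Fos, Fos for Junb, Egr1 for Fosb, Fosb for Egr1, Id3 for Jun, Rilpl2 for Ier2, Rrad for Nr4a1, Hacd4 for Klf2 and Mapk8ip3 for Btg2. For Ier3 it was Plau, the urokinase plasminogen activator, with 335, 479, 507 and 486 FPKM in tumor CD45+ libraries, 4.15, 1.74 and 4.08 FPKM in splenic CD45+ libraries and 0.77, 0 and 0.05 FPKM in splenic CD45- libraries.

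Other AP-1 and small Maf subunits moved in both directions. Of the 13 tested for tumor CD45+ over splenic CD45+, 7 were called higher and 3 lower (median log2 difference 1.62), and of the 8 tested for splenic CD45+ over splenic CD45-, 4 were higher and none lower (0.74). All genes tested had medians of 0.20 and 0.67 in these comparisons, with 37.7% and 50.5% called higher and 26.0% and 5.02% lower. The count called higher within the spleen was near the background, and so was the count called lower between the CD45+ groups. For tumor CD45+ over splenic CD45-, 10 of 13 were higher and 2 lower (3.18 against 1.06 over all genes tested, of which 67.5% were called higher and 22.5% lower). Of the 13, 8 were below 1 FPKM in every splenic CD45- library. Fosl1, a Fos-family subunit, had 14.6 ± 2.88 FPKM in tumor CD45+ libraries (SD, n = 4) and 0.05 ± 0.0866 FPKM in splenic CD45+ libraries (SD, n = 3), a log2 difference of 3.88 (adjusted p = 1.94e-06), and passed the filter only through the tumor. Maff, a small Maf, had 23.4 ± 6.05 FPKM in tumor CD45+ and 0.630 ± 0.691 FPKM in splenic CD45+ libraries (3.95, adjusted p = 3.59e-05). At 1.38, 0.02 and 0.49 FPKM in splenic CD45+ libraries, Maff too met the filter only through the tumor. Its relatives Mafk, at 18.3 ± 3.30 and 57.0 ± 12.6 FPKM in the same order, and Mafg, at 17.8 ± 1.21 and 32.8 ± 4.57 FPKM, fell by 1.58 and 0.84 on the log2 scale. Small Mafs have no transactivation domain and are known partners of the large NF-E2 subunit in erythroid cells. Atf3, a stress-induced AP-1 partner, had 347 ± 98.1 FPKM in tumor CD45+ and 0.283 ± 0.258 FPKM in splenic CD45- libraries (8.05, adjusted p = 3.49e-09), where it passed the filter only through the tumor. Splenic CD45+ libraries held more Jdp2, at 7.43 ± 3.09 against 0.190 ± 0.0954 FPKM in splenic CD45- libraries (2.77), and more Fosl2, at 5.11 ± 2.15 against 0.0600 ± 0.0346 FPKM (2.45), and both genes passed the filter only through splenic CD45+.

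None of the other immediate early transcription factors was called lower in any comparison. For tumor CD45+ over splenic CD45+, 10 of 15 tested were called higher (median log2 difference 1.65 against 0.20 over all genes tested). For splenic CD45+ over splenic CD45-, 10 of 11 tested were higher (2.86), and for tumor CD45+ over splenic CD45-, 15 of 15 (4.36). However, 5 of the 11 and 9 of the 15 were below 1 FPKM in every splenic CD45- library. Of all genes tested, 37.7%, 50.5% and 67.5% were called higher in these comparisons in turn, and 26.0%, 5.02% and 22.5% lower. Cebpb, a leucine-zipper factor of macrophage and emergency granulocyte programs, had 265 ± 54.8 FPKM in tumor CD45+, 33.1 ± 23.05 FPKM in splenic CD45+ and 1.77 ± 0.417 FPKM in splenic CD45- libraries. It was 3.25 higher on the log2 scale in tumor CD45+ over splenic CD45+ (adjusted p = 9.69e-04) and 6.58 higher in tumor CD45+ over splenic CD45- (adjusted p = 9.17e-10). Nfil3, a leucine-zipper repressor, had 36.7 ± 10.02 FPKM in tumor CD45+ and 5.78 ± 3.50 FPKM in splenic CD45+ libraries (2.57, adjusted p = 8.68e-04). Myc had 51.5, 18.5 and 32.2 FPKM in splenic CD45+ libraries and 2.72, 3.18 and 2.44 FPKM in splenic CD45- libraries (3.10, adjusted p = 0.00104), and it too was lowest in replicate 2 of the splenic CD45+ libraries. Cebpd (3.46, adjusted p = 0.00113) in splenic CD45+ over splenic CD45- and Bhlhe40 (4.36, adjusted p = 1.32e-10) in tumor CD45+ over splenic CD45- were below 1 FPKM in every splenic CD45- library.

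Feedback regulators and other early genes that are not transcription factors, among them phosphatases, RNA-binding proteins and survival factors, were mostly called higher. For tumor CD45+ over splenic CD45+, 20 of 29 tested were called higher and 1 lower (median log2 difference 2.71 against 0.20 over all genes tested). For splenic CD45+ over splenic CD45-, 19 of 23 tested were higher and 1 lower (2.69), and for tumor CD45+ over splenic CD45-, 26 of 29 were higher and 2 lower (4.51). The shares of all genes tested that were called higher were 37.7%, 50.5% and 67.5% in the same order, and those called lower 26.0%, 5.02% and 22.5%. Below 1 FPKM in every splenic CD45- library were 9 of the 23 and 15 of the 29. Zfp36, which encodes tristetraprolin, a protein that destabilizes AU-rich messenger RNAs, had 251, 28.7 and 156 FPKM in splenic CD45+ libraries and 4.07, 2.21 and 3.93 FPKM in splenic CD45- libraries (4.61, adjusted p = 0.00221). Dusp6, the ERK phosphatase, had 130 ± 2.42 FPKM in tumor CD45+ and 0.487 ± 0.0503 FPKM in splenic CD45- libraries (6.46, adjusted p = 4.45e-11), and Rhob, a small GTPase, 164 ± 15.3 and 0.733 ± 0.248 FPKM (6.57, adjusted p = 1.40e-10). Plk2, a stress-responsive kinase, had 43.1, 108, 111 and 116 FPKM in tumor CD45+ and 2.37, 0.10 and 1.10 FPKM in splenic CD45+ libraries (5.49, adjusted p = 3.69e-05). Dusp4, a nuclear MAP kinase phosphatase, had 12.9 ± 0.616 FPKM in tumor CD45+ and 0.543 ± 0.376 FPKM in splenic CD45+ libraries (3.20, adjusted p = 5.91e-06). Against these splenic groups, Dusp6 and Dusp4 passed the filter only through the tumor, so they could be called in a single direction. Rhob, at 1.01, 0.53 and 0.66 FPKM in splenic CD45- libraries, also met the filter only through the tumor. So did Plk2, at 2.37, 0.10 and 1.10 FPKM in splenic CD45+ libraries. Gadd45g was 1.29 higher in splenic CD45+ over splenic CD45- (adjusted p = 0.00194), a call lost with trimmed-mean (adjusted p = 0.178) and median-ratio scaling (0.120).

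Gadd45a and Ppp1r15a ran the other way. Gadd45a, a growth-arrest gene, had 11.2, 16.7, 17.0 and 19.0 FPKM in tumor CD45+ libraries, 166, 77.3 and 145 FPKM in splenic CD45+ libraries and 199, 205.5 and 186 FPKM in splenic CD45- libraries. It fell by 2.89 on the log2 scale in tumor CD45+ over splenic CD45+ (adjusted p = 9.69e-05) and by 3.57 in tumor CD45+ over splenic CD45- (adjusted p = 3.22e-08), the order of groups seen for Btg2. Ppp1r15a, a subunit that directs dephosphorylation of the translation factor eIF2α, had 62.5, 149.5, 157 and 141 FPKM in tumor CD45+ libraries, 322, 142 and 278 FPKM in splenic CD45+ libraries and 503, 479 and 421 FPKM in splenic CD45- libraries. It fell by 1.95 in tumor CD45+ over splenic CD45- (adjusted p = 1.94e-04) and by 0.99 in splenic CD45+ over splenic CD45- (adjusted p = 0.0286), and the second call was lost without any 1 splenic CD45- library (adjusted p from 0.0585 to 0.0982) and at a common sum (0.119).

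The kinases and bound factors upstream had median differences close to those of all genes tested in the spleen and between the CD45+ groups. For tumor CD45+ over splenic CD45+, 7 of 20 tested were called higher and 5 lower, with a median log2 difference of 0.11 against 0.20 over all genes tested. For splenic CD45+ over splenic CD45-, 12 of 20 were higher and none lower (0.77 against 0.67), and for tumor CD45+ over splenic CD45-, 14 were higher and 3 lower (0.70 against 1.06). The counts called higher lay near the background, since 37.7%, 50.5% and 67.5% of all genes tested were called higher in turn. The shares called lower were 26.0%, 5.02% and 22.5%. Elk3, an ETS partner of SRF, had 29.2 ± 1.52 FPKM in tumor CD45+, 5.10 ± 3.86 FPKM in splenic CD45+ and 0.210 ± 0.0529 FPKM in splenic CD45- libraries, 2.56 higher in tumor CD45+ over splenic CD45+ (adjusted p = 0.00157) and 4.64 higher in tumor CD45+ over splenic CD45- (adjusted p = 1.08e-10), where it passed the filter only through the tumor. Its relative Elk4 fell by 0.92 in tumor CD45+ over splenic CD45+ (adjusted p = 0.00232), where it met the filter only through the spleen. Mapk3, the kinase ERK1, had 135 ± 9.60 FPKM in tumor CD45+ and 55.9 ± 5.05 FPKM in splenic CD45+ libraries (1.25, adjusted p = 1.45e-04). Map2k1, the ERK kinase MEK1, had 73.0 ± 1.48 FPKM in tumor CD45+ and 6.53 ± 0.277 FPKM in splenic CD45- libraries (3.30, adjusted p = 2.73e-10). Map2k3, which activates p38, ran the other way, with 33.6 ± 1.47 FPKM in tumor CD45+, 176.5 ± 26.2 FPKM in splenic CD45+ and 236 ± 10.8 FPKM in splenic CD45- libraries. It fell by 2.35 in tumor CD45+ over splenic CD45+ (adjusted p = 8.40e-06) and by 2.78 in tumor CD45+ over splenic CD45- (adjusted p = 1.24e-09). Among the ERK-driven kinases, Rps6ka3 was 1.68 higher in splenic CD45+ over splenic CD45- (adjusted p = 0.00144), and Rps6ka1 fell by 0.46 in tumor CD45+ over splenic CD45- (adjusted p = 3.09e-04), a sign that turned at a common sum (0.17). Mapk8, the kinase JNK1, was 1.12 higher in splenic CD45+ over splenic CD45- (adjusted p = 0.00317), a call lost with trimmed-mean scaling (adjusted p = 0.137) and median-ratio scaling (0.105).

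Heat shock genes that cell dissociation is known to raise were read beside the members. For tumor CD45+ over splenic CD45+, 5 of 11 tested were called higher and none lower (median log2 difference 0.73 against 0.20 over all genes tested, of which 37.7% were called higher). For splenic CD45+ over splenic CD45-, 7 of 9 tested were higher and none lower (1.37 against 0.67, and 50.5%), a count of 2 with trimmed-mean or median-ratio scaling, and for tumor CD45+ over splenic CD45-, 9 of 11 were higher and 1 lower (2.28 against 1.06, and 67.5%). The shares of all genes called lower were 26.0%, 5.02% and 22.5% in turn. The summed level of the heat shock genes was 2443 to 3888 FPKM in tumor CD45+, 1371 to 3434 FPKM in splenic CD45+ and 700 to 824 FPKM in splenic CD45- libraries. In splenic CD45+ replicate 2, where the members were low, the list was high, at a median of 1.75 and 2.11 times its level in replicates 1 and 3. The inducible Hspa1a did not share this, with 96.7, 259, 266 and 280 FPKM in tumor CD45+ libraries and 34.8, 0.14 and 2.84 FPKM in splenic CD45+ libraries (5.28, adjusted p = 0.00291), and neither did its near-identical copy Hspa1b, with 74.6, 283, 280 and 312 FPKM in tumor CD45+ and 49.7, 0.56 and 3.6 FPKM in splenic CD45+ libraries, though the split of reads between the pair is uncertain. Hspb1, a small heat shock protein, had 10.6, 39.5, 42.0 and 38.7 FPKM in tumor CD45+ libraries and 0.12, 0 and 0.36 FPKM in splenic CD45+ libraries (4.70, adjusted p = 7.83e-05), and passed the filter only through the tumor. Hspa1a and Hspa1b, each below 1 FPKM in splenic CD45+ replicate 2, also met the filter only through the tumor. Hspa1a, Hspa1b and Hspb1 were lowest in tumor replicate 1, as the AP-1 members were. Hsp90ab1 (1.75, adjusted p = 0.00135) and Hspd1 (1.95, adjusted p = 0.00347) were higher in splenic CD45+ over splenic CD45-, and the Hspd1 call was lost with trimmed-mean (adjusted p = 0.0755) and median-ratio scaling (0.0541). Hspa8 (2.40, adjusted p = 3.68e-08) and Hspe1 (2.28, adjusted p = 4.22e-08) were higher in tumor CD45+ over splenic CD45-, where Dnajb1 fell by 0.95 (adjusted p = 0.00345). The part of cell handling in the members' levels was not tested.

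Summed monocyte and macrophage markers had the same order of groups as most members, while summed lymphocyte, granulocyte and erythroid markers did not. For tumor CD45+ over splenic CD45+, 9 of the 10 monocyte and macrophage markers were called higher, beside 37.7% of all genes tested. The other, Ly6c2, was called lower, with 54.6 ± 22.8 FPKM in tumor CD45+ and 189 ± 136 FPKM in splenic CD45+ libraries. Monocyte and macrophage markers summed to 20470 to 40110 FPKM in tumor CD45+ libraries (10 of 10 at 1 FPKM or more), 1408 to 4003 FPKM in splenic CD45+ libraries (9 or 10 of 10) and 55.3 to 101 FPKM in splenic CD45- libraries (6 to 8 of 10). Csf1r, the receptor that defines these cells, had 305, 253.5, 257 and 261 FPKM in tumor CD45+ libraries, 201, 9.39 and 40.5 FPKM in splenic CD45+ libraries and 2.84, 2.59 and 3.07 FPKM in splenic CD45- libraries, with the same low splenic replicate 2. B cell markers summed to 6.13 to 8.01, 161 to 1487 and 27.1 to 34.9 FPKM in tumor CD45+, splenic CD45+ and splenic CD45- libraries in turn, and T and NK cell markers to 8.64 to 47.9, 69.9 to 436 and 21.2 to 22.7 FPKM. Granulocyte markers summed to 38.7 to 1719, 22560 to 75810 and 385 to 515 FPKM, and erythroid markers to 5982 to 40970, 128600 to 276000 and 325600 to 416300 FPKM in the same order. Dendritic cell markers stayed at or below 75.3 FPKM and endothelial markers at or below 38.4 FPKM in sum in every library.

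Carcinoma and stromal markers lay mostly in the tumor libraries, so they too were highest where most members were highest. Carcinoma and epithelial markers summed to 312 to 406 FPKM in tumor CD45+, 0.39 to 2.84 FPKM in splenic CD45+ and 0.03 to 0.84 FPKM in splenic CD45- libraries, and 3 of the 7 reached 1 FPKM in tumor libraries, Krt8, Krt18 and Cdh1. Krt8 had 239, 208.5, 214 and 215 FPKM in tumor CD45+ libraries, while the squamous keratin Krt5 was at or below 0.02 FPKM in all 10 libraries. Stroma markers summed to 139 to 198 FPKM in tumor CD45+ libraries (6 of 6 at 1 FPKM or more), at most 0.49 FPKM in splenic CD45+ and at most 2 FPKM in splenic CD45- libraries. The part of macrophages, lymphocytes, carcinoma or stromal cells in the members' differences was not tested.

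**Figure D5:**
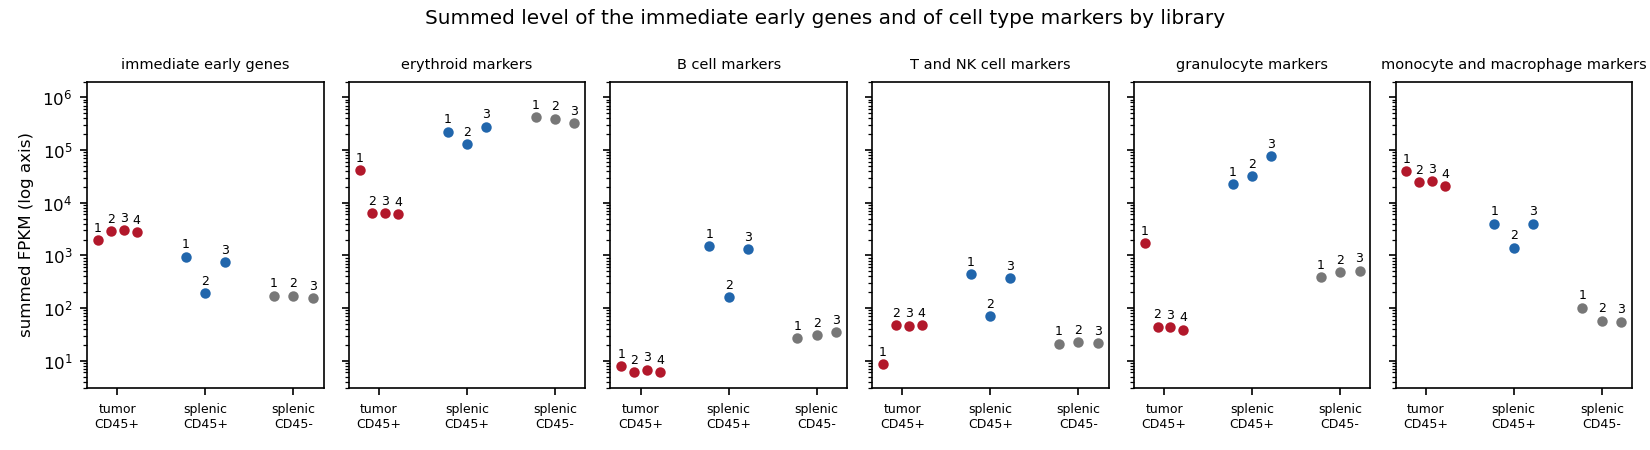
Summed FPKM (log axis) of the 10 members and of markers of 5 cell types in each library, with replicate numbers. The members' sum ran from 1947 to 3009 FPKM in tumor CD45+, from 191 to 945 FPKM in splenic CD45+ and from 156 to 173 FPKM in splenic CD45- libraries, the last mostly Btg2.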

How the data were processed

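Messenger RNA was measured by RNA sequencing in 4 tumor CD45+, 3 splenic CD45+ and 3 splenic CD45- libraries, which were grouped by their titles. RNA was extracted with TRIZOL and made into libraries by a sequencing company, per the labels' protocols, and the submitters' processing notes name GRCm38.p6 as genome build. No source used here names the aligner or the quantifying program. The authors deposited 1 value for each of 61685 transcript models per library, read here as FPKM because values multiplied by known transcript lengths summed to 953307 to 1137770 in every library. No header names the unit. FPKM keep no counts, so no counting intervals are given, and the depth of about 17000000 to 21200000 fragments was taken from the steps between low values. At 1 kilobase 1 fragment is worth 0.0472 to 0.0589 FPKM, so values far below 1 FPKM are coarse. Models were joined to symbols through the RefSeq gene table of the same build, models of a gene were summed, and 1518 models without a symbol (0.423% to 1.06% of FPKM) were left out.

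Genes that reached 1 FPKM in 3 or more libraries of a comparison were fitted with limma 3.58.1 (R 4.3.3; eBayes with trend, no covariates) on log2(FPKM + 1). P-values were adjusted by Benjamini-Hochberg across all fitted genes. The pseudocount of 1 understates the change of low genes. The fit was tested on simulated data. All members are named, and from each pathway list up to 2 called genes per direction and comparison with the smallest adjusted p. The members and lists were chosen with earlier results of these data known. Alternatives were another pseudocount (0.1), no filter, trimmed-mean, median-ratio and common-sum scaling, and globin genes left out before scaling to a common sum. Further ones were 1 fit over all libraries, a replicate block, the highest model per gene, and leaving out each library. The averages of tumor replicates were added after the data were seen. The labels give no batch or date. Figures were made with Python 3.11.15 and matplotlib 3.10.9.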

Additional observations from a re-analysis of the deposited data

Results flagged for a closer look

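Tumor CD45+ replicate 1 lay apart from the other tumor libraries by Dixon's test, which divides the gap between the extreme sample and its nearest neighbour by the group's range; values past its 95% limit for 4 samples are given. Of 26 values examined in the tumor group, 14 passed it, and since all come from the same library these are not separate events. Chance passes about 1 in 20 such groups. The quotient was 0.8865 for Fosb, 0.8453 for Jun, 0.8544 for Egr1, 0.8953 for Nr4a1 and 0.8731 for Btg2, each with replicate 1 the lowest, so the same library was low for 4 members that were higher in the tumor and for the member that was lower there. Fos, Junb, Ier2, Ier3 and Klf2 did not pass.

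Replicate 1 was also the lowest for the summed FPKM of the other AP-1 and small Maf subunits (0.8608), the feedback regulators (0.8965), the heat shock genes (0.8657), the T and NK cell markers (0.9559), the dendritic cell markers (0.8644) and the stroma markers (0.9593). It was the highest for the erythroid markers (0.9891), the granulocyte markers (0.9965) and the carcinoma and epithelial markers (0.9403). How much these cell types contributed to the members' levels in replicate 1 was not tested. The test was run on the tumor group only, so splenic CD45+ replicate 2, which was lowest for all 10 members, was not tested in this way.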

How the results depend on the processing

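The count of members called stayed within 1.5 times its value under all alternatives but 1. It was 10 for tumor CD45+ over splenic CD45+, where the replicates left out in turn gave 7 to 10 and the average of tumor replicates 2 to 4 gave 2, 8 for splenic CD45+ over splenic CD45- (6 to 9 over 15 alternatives) and 10 for tumor CD45+ over splenic CD45- under all 18. Among all genes, 7313 (4769 to 8720), 5400 (3964 to 6737) and 10085 (9357 to 12361) were called in the same order. Scaling moved the median log2 difference of all genes in splenic CD45+ over splenic CD45- from 0.67 to -0.32 (trimmed mean), -0.27 (median ratio) or 0.99 (common sum), and there the trimmed mean and median ratio ended the calls of Ier2 (0.96 and 1.02) and Ier3 (0.26 and 0.31). In tumor CD45+ over splenic CD45- it moved from 1.06 to -0.012, 0.11 and 1.47, and in tumor CD45+ over splenic CD45+ from 0.20 to 0.066, 0.13 and 0.44, with no member's call lost. Globin genes were also left out and the libraries then rescaled to a common sum. In tumor CD45+ over splenic CD45+ the median log2 difference of all genes was then -0.22. There Ier2 (adjusted p = 0.109), Klf2 (0.0966) and Nr4a1 (0.0854) were lost under this setting. Without a filter, Nr4a1 was lost there (0.0610) and Egr1 in splenic CD45+ over splenic CD45- (0.0606). Fosb in splenic CD45+ over splenic CD45- could be tested only without a filter (3.04, adjusted p = 0.0797) or without globin genes at a common sum (3.37, adjusted p = 0.0394). Signs turned at a common sum for Btg2 in splenic CD45+ over splenic CD45- (0.094) and Rps6ka1 in tumor CD45+ over splenic CD45- (0.17), and there the calls of Mafg (-0.59 over splenic CD45+, -0.28 over splenic CD45-) and Dnajb1 (-0.32) were also lost. In tumor CD45+ over splenic CD45+, the average of tumor replicates 2 to 4 also cut the calls among other transcription factors from 10 to 4, upstream genes from 12 to 4 and heat shock genes from 5 to 2, and leaving out both libraries that stood apart gave 8 heat shock genes. The causes were not tested.

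Whether shared replicate numbers pair the libraries could not be settled, since deviations from the mean of so few libraries are tied to each other. Correlations of same-numbered deviations were -0.175, -0.100 and -0.0434 for tumor CD45+ with splenic CD45+, 0.118, 0.0845 and -0.0153 for splenic CD45+ with splenic CD45-, and 0.235, 0.0951 and -0.0229 for tumor CD45+ with splenic CD45-. Differently numbered ones ran from -0.103 to 0.180, from -0.113 to 0.0618 and from -0.130 to 0.122 in the same order. With the replicate block, Nr4a1 was no longer called in tumor CD45+ over splenic CD45+ (2.52, adjusted p = 0.0548), 6 instead of 12 upstream genes were called there, and no other member's call changed. Depth limits the splenic CD45- values of Egr1, Fosb and Nr4a1, all below 1 FPKM.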
